A study of Mus musculus with 20 samples.

Results

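Ligands and receptors of axon guidance were taken from arrays of whole postnatal day 3 brain as every probe set with 1 gene symbol of the semaphorin, plexin, Eph receptor, ephrin, Robo or Unc5 families, or of Nrp1, Nrp2, Slit1, Slit2, Slit3, Ntn1, Ntn3, Ntn4, Dcc or Neo1. The rule found 160 probe sets of 71 genes among the 45037 probe sets tested, which covered 18193 genes with 1 symbol. RNA came from 10 WT and 10 Hdac4KO brains, 5 per labelled sex and genotype, on a mixed B6CBAF1/OlaHsd background and without treatment. Hdac4KO mice were homozygous knock-outs of Hdac4, a class IIa histone deacetylase. They came from intercrosses within a colony whose heterozygous males were bred back to B6CBAF1/OlaHsd females, so the knock-out was not limited to a cell type, and whether WT brains came from the same litters was not stated. The question was which of these guidance genes differed between the 2 genotypes, family by family. All values are log2 signals of a probe set, a difference is Hdac4KO minus WT, errors of means are SD over 10 arrays and errors of differences are SE, and a probe set was called at a limma adjusted p under 0.05.

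Growing axons steer by secreted and membrane-bound cues that are read by receptors on the growth cone. Semaphorins act through plexins, with the neuropilins as co-receptors for the secreted class, and ephrins act through Eph receptors, with signalling in both directions between the touching cells. Slits repel axons through Robo receptors, and netrins attract through Dcc and repel through Unc5 receptors, while Neo1 is the relative of Dcc that also reads repulsive guidance molecules. Several of these proteins are used again in the neonatal brain for dendrite growth, synapse formation and blood vessel patterning.

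Of the 160 probe sets, 1 was higher and 5 were lower in Hdac4KO. Over all probe sets tested, 1.05% were called higher and 1.01% lower, so that 1 or 2 calls in each direction would be a share like that of the whole array. The 5 lower calls came from only 2 genes. Plxnc1, the receptor of Sema7a, supplied 4 of them, and 1 of 3 probe sets of Sema6a, a membrane-bound semaphorin that binds plexins of the A class, supplied the other. The single higher call was Sema4g, a membrane-bound semaphorin of class 4. No member separated the genotypes completely (0 of 160 probe sets had 10 arrays of one genotype beyond all 10 of the other). The matching share over all probe sets was not counted.

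The promoters of the 2 genes that were called at their brightest probe set, Plxnc1 and Sema4g, are shown to give the sequence around their annotated starts. They are from RefSeq on the build GRCm38.p6 and run from 250 bases before to 50 bases after the start, at chr10:94944796-94945095 on the minus strand and chr19:44989094-44989393 on the plus strand. Capitals mark every E-box (CANNTG) and GC box (GGGCGG), searched on both strands.
Plxnc1: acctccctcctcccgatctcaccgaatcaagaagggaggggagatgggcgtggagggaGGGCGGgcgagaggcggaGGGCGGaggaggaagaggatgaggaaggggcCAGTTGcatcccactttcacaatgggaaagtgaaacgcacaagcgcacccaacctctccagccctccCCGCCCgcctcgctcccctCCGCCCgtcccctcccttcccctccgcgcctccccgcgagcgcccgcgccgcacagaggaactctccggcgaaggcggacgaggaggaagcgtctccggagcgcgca
Sema4g: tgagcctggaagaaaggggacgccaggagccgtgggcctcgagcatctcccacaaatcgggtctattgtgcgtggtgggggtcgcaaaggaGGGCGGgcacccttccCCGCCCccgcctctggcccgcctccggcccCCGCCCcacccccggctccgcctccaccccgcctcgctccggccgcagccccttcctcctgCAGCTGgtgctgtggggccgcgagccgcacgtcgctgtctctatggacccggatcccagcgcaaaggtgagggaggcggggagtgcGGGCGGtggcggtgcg
Both held 1 E-box and 4 GC boxes, with a GC content of 69% and 73.3%. The MEF2 site, a sequence bound by the transcription factors with which HDAC4 is known to associate, was in neither window. Of the 71 genes, 60 matched a RefSeq promoter, which gave 76 windows. A GC box was in 73.7% of these against 35.7% of all 32851 promoters of the same length, an E-box in 50% against 72.3%, the cAMP response element core TGACG in 13.2% against 20.8%, and the MEF2 site in 1.32% against 3.19%. The MEF2 count was 1 window, that of Sema6d. These are matches of letters and were not measured as binding.

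Signals of Hdac4 followed the labels, but less clearly in WT replicate 8 and Hdac4KO replicate 10. The difference was -1.39 at its brightest probe set, with no overlap between the genotypes, -1.19 at the second and -0.46 at the third (adjusted p = 6.28e-07, 9.48e-07 and 0.0198). WT replicate 8 had the lowest WT signal at all 3 probe sets, and Hdac4KO replicate 10 had the highest Hdac4KO signal at both of the brighter ones. At the brightest they had 7.54 and 7.43, where the medians were 7.96 in WT and 6.50 in Hdac4KO. At the second they had 7.357 and 7.355, where the medians were 7.81 and 6.47. Sex-linked genes went against the labelled sex in WT replicates 5 and 9 and in Hdac4KO replicate 10. The genotype of WT replicate 8 and of Hdac4KO replicate 10 is thus less certain than that of the other arrays. All labels were kept as given, and whether an array was mislabelled was not tested. Array medians lay between 6.26 and 6.32. RNA integrity was read from control probe sets for actin and Gapdh as their signal at the 3′ end less that at the 5′ end, which was 0.191 ± 0.031 in WT and 0.216 ± 0.030 in Hdac4KO (permutation test, two-sided, p = 0.0820). Neuronal markers were all measured, and the lowest of them, Dcx, had a mean of 12.25. Of the neuronal markers 1 of 8 (Nefl) and 2 of 7 choroid plexus markers (Ttr and Sostdc1) were called lower. The summed linear signal of the choroid plexus markers ran from 17809 to 20876 in WT and from 16226 to 19043 in Hdac4KO, and that of the neuronal markers from 66421 to 68044 and from 64434 to 69028. No marker of astrocytes and radial glia, the oligodendrocyte lineage, microglia, endothelial and mural cells, meninges and fibroblasts or erythroid cells was called. The median difference was 0.13 in microglia and -0.14 in choroid plexus markers, and lay between -0.044 and 0.0012 in the other lists. Only 5 of 8 erythroid markers were measured. Their summed signal was low, from 267 to 359 in WT and from 280 to 339 in Hdac4KO, so this list can show little about blood. With the 3′ minus 5′ difference as a covariate, the members had 0 higher calls and 1 lower call. No fit was made with a measure of cell composition. Whether RNA integrity or cell composition caused any of the differences in guidance genes was not tested. In RNA of a whole brain, fewer cells of a type and less RNA per cell cannot be told apart.

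Calls were confined to semaphorins and plexins. Semaphorins (20 genes, 48 probe sets) had 1 higher and 1 lower call, and plexins (9 genes, 22 probe sets) had 4 lower calls, all Plxnc1. Neuropilins (2 genes, 8 probe sets), ephrins (8 genes, 17 probe sets), Eph receptors (13 genes, 28 probe sets), Slits (3 genes, 6 probe sets), Robos (4 genes, 7 probe sets) and netrins with Dcc, Neo1 and the Unc5 receptors (9 genes, 19 probe sets) had none by limma. Of their 85 probe sets, 6 were higher and 10 lower at an unadjusted p under 0.05. The shares over all probe sets tested were 9.93% and 8.1%. The median difference was closest to 0 in semaphorins (0.00008) and farthest in Slits (0.048). It was -0.021 in plexins, -0.006 in neuropilins, 0.015 in ephrins, -0.003 in Eph receptors, -0.016 in Robos and 0.017 in netrins with their receptors. Ligands (34 genes, 76 probe sets) had a median of 0.013 and receptors (34 genes, 79 probe sets) of -0.007. The median over all 34945 probe sets with 1 symbol was 0.0038. The other 3 symbols, Unc50, Unc5cl and Plxna4os1, were caught by their names only and are neither ligand nor receptor of guidance.

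**Figure D1:**
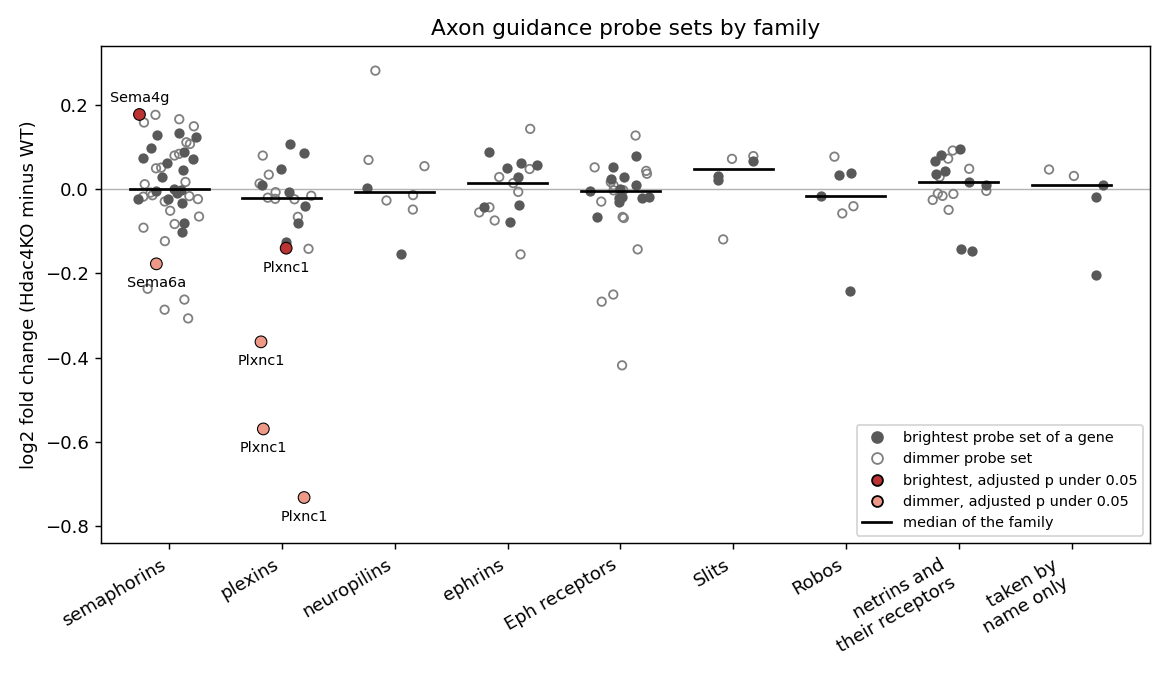
Difference of each of the 160 probe sets (Hdac4KO minus WT, log2) by family, with filled points for the brightest probe set of each gene, open points for the dimmer ones, red for the called probe sets, which are named, and a line at the median of the family. Most points lie close to 0 in every family, the largest differences are dimmer probe sets, and the points of Plxnc1 reach -0.73.

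At an unadjusted p under 0.05, 18 of 160 member probe sets were higher and 21 lower, or 11.25% and 13.125%, against 9.93% and 8.1% of all probe sets tested. Positive differences were seen at 78 of 160 probe sets (48.75%). At the brightest probe set of each gene the median difference was 0.0098 and the range ran from -0.24 (Robo1) to 0.18 (Sema4g). There, 8 of 71 genes were higher and 7 lower at an unadjusted p under 0.05, against 2322 and 1126 of all 18193 genes. In 65 of 71 genes (91.5%) the 95% confidence interval at the brightest probe set lay within 1.2-fold in either direction, as it did in 90.4% of all genes. All 8 probe sets that differed by more than 1.2-fold were dimmer ones of their gene, and 7 of these 8 were lower. Plxnc1 and Epha4 each supplied more than 1 of the 8. The matching shares over all probe sets were not counted, so these counts do not set the members apart from the array. The spread within a genotype was like that of the array, with a median SD of 0.112 over members and 0.121 over all probe sets.

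Plxnc1 fell in Hdac4KO. It is the receptor through which the membrane-anchored Sema7a acts on axons and immune cells. At its brightest probe set (1423213_at) the WT arrays ran from 10.80 to 10.97 with a median of 10.94, and the Hdac4KO arrays from 10.70 to 10.84 with a median of 10.76. Of the 10 Hdac4KO arrays, 9 lay below the lowest WT array. The means were 10.90 ± 0.07 and 10.76 ± 0.04, a difference of -0.14 ± 0.03, or a 1.10-fold lower signal (adjusted p = 0.0203).

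The next probe set of Plxnc1 (1450905_at) gave nearly the same difference with more spread. Its WT arrays ran from 8.06 to 8.28 around a median of 8.18 and its Hdac4KO arrays from 7.92 to 8.17 around 8.002, with 6 Hdac4KO arrays below the lowest WT array. The difference of -0.14 ± 0.04 just missed the threshold (adjusted p = 0.0501). It passed under 9 of its 32 alternatives, over which the adjusted p ran from 0.0235 to 0.130, and among the single arrays it passed without WT replicate 9 or Hdac4KO replicate 10 (adjusted p = 0.0315 to 0.0374).

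The larger differences were at dim probe sets. At 1450906_at WT arrays ran from 5.77 to 6.63 around 6.25 and Hdac4KO arrays from 4.66 to 6.14 around 5.69, a difference of -0.73 ± 0.16 or 1.66-fold (adjusted p = 0.0226). At 1423214_at WT arrays ran from 5.66 to 6.61 around 6.26 and Hdac4KO arrays from 4.91 to 6.18 around 5.72, a difference of -0.57 ± 0.14 or 1.48-fold (adjusted p = 0.0423). The genotypes overlapped at both, with 7 and 5 Hdac4KO arrays below all WT arrays, and both were above the array median in only 4 of 20 arrays. At 1443434_s_at WT arrays ran from 4.32 to 4.71 around 4.55 and Hdac4KO arrays from 3.96 to 4.35 around 4.17, a difference of -0.36 ± 0.06 or 1.29-fold (adjusted p = 0.00446). There, 8 Hdac4KO arrays lay below every WT array, although this probe set was below the array median in all 20 arrays, and by the naming of the platform such a probe set can match transcripts of more than 1 gene. The dimmest probe set, 1443433_at, gave -0.02 ± 0.07 (adjusted p = 0.941). Probe sets annotated to 1 gene are not separate observations of a change.

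**Figure D2:**
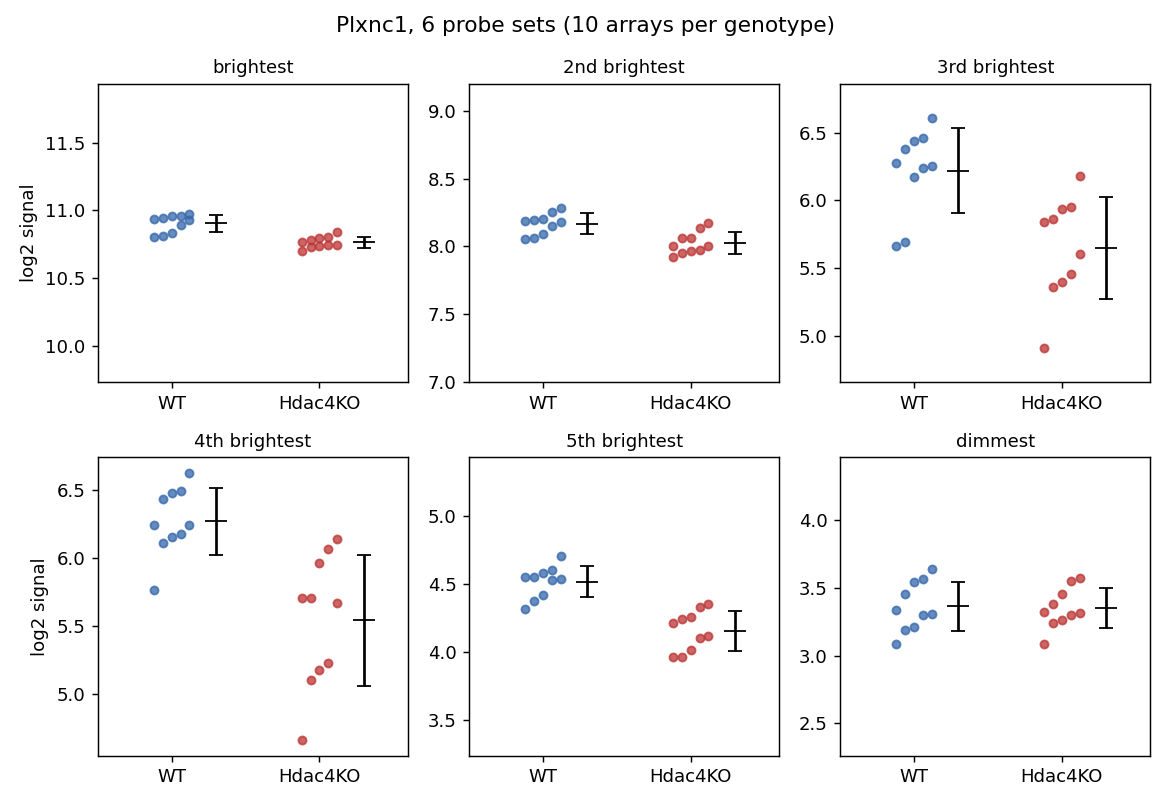
Signal of the 6 Plxnc1 probe sets in each array (log2, 1 panel per probe set, each y axis with the same span), with WT in blue, Hdac4KO in red and bars for the mean ± SD of 10 arrays. The Hdac4KO arrays lie lower in 5 of the 6 panels, by little and tightly in the brightest and by more and with wide scatter in the 3rd and 4th brightest.

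Hdac4KO replicate 10, 1 of the 2 arrays with an intermediate Hdac4 signal, was the lowest Hdac4KO array at 3 of the dim Plxnc1 probe sets. Without it and WT replicate 8, the differences were -0.14, -0.65, -0.55 and -0.34 in the order in which the called probe sets are given here, all with an adjusted p under 0.05 (0.0425, 0.0430, 0.0425 and 0.0188). Without the 3 arrays that went against their sex label, 1423214_at lost its call (-0.49, adjusted p = 0.0972). The call at 1423214_at was also lost on leaving out any 1 of 13 arrays, WT replicates 1, 2, 3, 4, 5, 6 and 10 and Hdac4KO replicates 5 to 10 (adjusted p = 0.0524 to 0.0799). With the 3′ minus 5′ difference as a covariate the brightest probe set gave -0.15 (adjusted p = 0.0808), 1450906_at gave -0.60 (0.110), and of the Plxnc1 probe sets only 1443434_s_at kept its call (-0.28, adjusted p = 0.0101). By Welch's test 1450906_at and 1423214_at missed the threshold (adjusted p = 0.0514 and 0.0670), and by the methods' t-test 1423214_at did (0.0592). Sema7a, the ligand of Plxnc1, had differences of 0.07 and 0.16 at its probe sets (adjusted p = 0.490 and 0.276), and its WT and Hdac4KO arrays overlapped at 10.20 to 10.49 and 10.15 to 10.61 at the brighter one.

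Sema4g was the only member gene called higher. It is a transmembrane semaphorin of class 4, and the array held 1 probe set for it (1449202_at). WT arrays ran from 9.27 to 9.42 around a median of 9.32 and Hdac4KO arrays from 9.42 to 9.61 around 9.53. Of the 10 Hdac4KO arrays, 9 lay above the highest WT array. The means were 9.34 ± 0.06 and 9.51 ± 0.07, a difference of 0.18 ± 0.03 or 1.13-fold (adjusted p = 0.0143). The call was kept with each of the 20 arrays left out in turn (highest adjusted p = 0.0370) and was lost with the 3′ minus 5′ difference as a covariate (0.15, adjusted p = 0.0785).

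Sema6a, which signals through plexins of the A class in the cerebellum and the spinal cord, fell at 1 of its 3 probe sets. At the brightest (1436458_at) the genotypes overlapped, with WT arrays from 8.85 to 9.10 and Hdac4KO arrays from 8.77 to 9.11 and a difference of -0.01 ± 0.05 (adjusted p = 0.947). At 1421414_a_at WT arrays ran from 7.001 to 7.24 around 7.11 and Hdac4KO arrays from 6.74 to 7.14 around 6.94, with 8 Hdac4KO arrays below all WT arrays. The difference there was -0.18 ± 0.04 or 1.13-fold (adjusted p = 0.0410). The third probe set (1425903_at) gave -0.26 ± 0.10 (adjusted p = 0.142). The call at 1421414_a_at was lost on leaving out any 1 of 11 arrays, WT replicates 2, 3, 4, 5, 6 and 8 and Hdac4KO replicates 5, 6, 8, 9 and 10 (adjusted p = 0.0532 to 0.0747). It was also lost without both arrays of intermediate Hdac4 signal (-0.16, adjusted p = 0.106), without the 3 arrays that went against their sex label (-0.16, 0.117), with the 3′ minus 5′ covariate (-0.16, 0.145) and by Welch's test (0.0539).

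The other semaphorins did not pass the test. Sema4d, the ligand of Plxnb1, came closest, with 0.15 ± 0.04 at its second probe set (1420824_at, adjusted p = 0.0501), where WT arrays ran from 7.28 to 7.57 around 7.42 and Hdac4KO arrays from 7.50 to 7.66 around 7.55. Its brightest probe set gave 0.13 ± 0.06 (adjusted p = 0.235). The second probe set passed under 11 of its 32 alternatives (adjusted p from 0.0238 to 0.127 over all of them), among them without WT replicate 3, 9 or 10 or Hdac4KO replicate 1 or 2 (adjusted p = 0.0298 to 0.0483). Sema5b gave 0.12 ± 0.05 (adjusted p = 0.177) and Sema6c 0.10 ± 0.04 (0.220) at the brightest probe set. Sema6d, a receptor and ligand of plexins of the A class, had -0.00074 ± 0.029 at the brightest probe set and -0.29 ± 0.08 at a dim one that was above the array median in none of the 20 arrays (1446536_at, adjusted p = 0.0634). Among the secreted class 3 semaphorins, most of which repel axons through neuropilins, none of Sema3a, Sema3b, Sema3c, Sema3d, Sema3e, Sema3f and Sema3g was called. Differences at their brightest probe sets ran from -0.08 (Sema3f) to 0.13 (Sema3g), and those of all 48 semaphorin probe sets from -0.31 to 0.18. A dimmer probe set of Sema3c (1420696_at) was called without Hdac4KO replicate 1 and under no other alternative. The dim probe set of Sema6d was called with array weights and without Hdac4KO replicate 2. A dimmer probe set of Sema4f (1419328_at) was called only without Hdac4KO replicate 2. The class 3 genes are listed here for their role and not for their values.

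**Figure D3:**
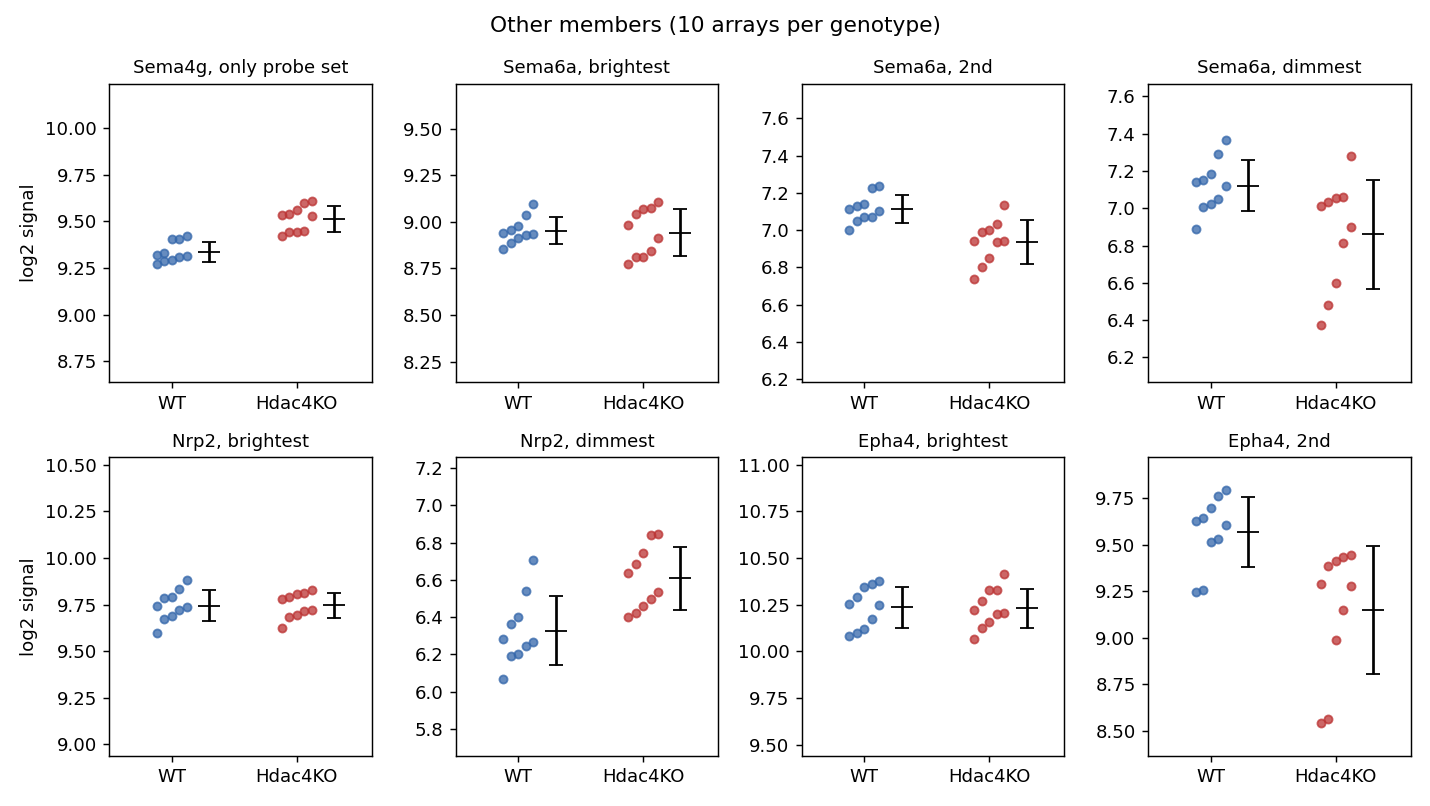
Signal in each array (log2) at probe sets of Sema4g, Sema6a, Nrp2 and Epha4, with WT in blue, Hdac4KO in red, bars for the mean ± SD of 10 arrays and y axes of equal span. Sema4g separates all but 1 Hdac4KO array from the WT arrays, whereas the genotypes overlap in the other panels.

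None of the remaining plexins was called by limma. Plxnd1, the receptor of Sema3e on blood vessels and axons, gave 0.11 ± 0.04 (adjusted p = 0.183) and Plxna1, which pairs with neuropilins, gave 0.09 ± 0.03 (0.157). Plxna2 gave 0.05 ± 0.04 (adjusted p = 0.545). Of the 16 plexin probe sets that are not of Plxnc1, 2 were higher and 0 lower at an unadjusted p under 0.05. The shares over all probe sets tested were 9.93% and 8.1%.

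The neuropilins bind class 3 semaphorins and also VEGF. The study chose Nrp2 for qPCR on the basis of these arrays, so its array value is not separate support for that choice. By qPCR the study reported Nrp2 as unchanged. At the brightest of 4 Nrp2 probe sets the WT arrays ran from 9.60 to 9.88 and the Hdac4KO arrays from 9.62 to 9.83, with a difference of 0.00 ± 0.04 (adjusted p = 0.986). The next probe sets gave -0.03 ± 0.05 and 0.07 ± 0.05. At the dimmest (1447343_at) WT arrays ran from 6.07 to 6.70 around 6.27 and Hdac4KO arrays from 6.40 to 6.85 around 6.59, and the difference of 0.28 ± 0.07 just missed the threshold (adjusted p = 0.0504). It passed under 9 of its 32 alternatives (adjusted p from 0.0283 to 0.196 over all of them), among them without WT replicate 6 or 8 (adjusted p = 0.0302 and 0.0477). Nrp1 gave -0.15 ± 0.05 at its brightest probe set (1448943_at, adjusted p = 0.0951), where WT arrays ran from 10.77 to 11.03 and Hdac4KO arrays from 10.57 to 10.90, and 0.05, -0.05 and -0.01 at the others.

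No ephrin was called. Ephrins of the A class are tethered by a lipid anchor and those of the B class span the membrane. Efnb1 gave -0.08 ± 0.03 (adjusted p = 0.201), Efna5, which forms the retinotopic map with Efna2, gave 0.06 ± 0.03 (0.282), and Efna1 gave 0.09 ± 0.06 (0.454) at the brightest probe set.

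None of the 28 Eph receptor probe sets was called by limma, and those of Epha4, which repels corticospinal and motor axons that meet ephrins, disagreed with one another. The brightest probe set of Epha4 gave -0.0036 ± 0.048 (adjusted p = 0.982), with arrays from 10.08 to 10.37 in WT and from 10.07 to 10.41 in Hdac4KO. At the second (1439757_s_at) WT arrays ran from 9.25 to 9.79 around 9.62 and Hdac4KO arrays from 8.55 to 9.45 around 9.28, with a difference of -0.42 ± 0.11 that missed the threshold (adjusted p = 0.0563). The others gave -0.27, 0.13 and -0.25 (adjusted p = 0.134, 0.188 and 0.236). Epha4 was the only member gene with unadjusted p-values under 0.05 in both directions. The second probe set passed under 7 of its 32 alternatives, among them with dim probe sets left out (adjusted p = 0.0332), with array weights (0.0438) and without WT replicate 9 or 10 or Hdac4KO replicate 2 or 4 (0.0367 to 0.0472). Hdac4KO replicates 9 and 10 had its lowest signals (8.55 and 8.57), and the next array was Hdac4KO replicate 8 at 8.99. By the naming of the platform it can match transcripts of more than 1 gene. At the brightest probe set Epha2 gave -0.07 ± 0.04 (adjusted p = 0.341), Ephb6, which lacks kinase activity, gave 0.08 ± 0.05 (0.376) and Epha5 gave 0.05 ± 0.04 (0.510). The 95% confidence interval lay within 1.2-fold at the brightest probe set of all 13 Eph receptor genes.

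Robo1, the receptor that keeps commissural axons from crossing the midline again, had the largest difference of any member gene at its brightest probe set. WT arrays ran from 10.48 to 11.04 around 10.90 and Hdac4KO arrays from 10.36 to 10.88 around 10.54. The genotypes overlapped, with 5 Hdac4KO arrays below all WT arrays, and the difference of -0.24 ± 0.08 did not pass the test (adjusted p = 0.119, between 0.0579 and 0.236 over its alternatives). Its other probe sets gave 0.08 ± 0.06 and -0.04 ± 0.06. Robo2 gave 0.04 ± 0.09 and Robo4, the endothelial member, 0.03 ± 0.05. The Slit ligands gave 0.07 ± 0.05 (Slit1), 0.02 ± 0.03 (Slit2) and 0.03 ± 0.04 (Slit3), with adjusted p-values of 0.560, 0.748 and 0.777, and none of their 6 probe sets had an unadjusted p under 0.05.

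Neo1, the receptor of netrins and repulsive guidance molecules, was slightly higher by its mean at both of its bright probe sets, by 0.09 ± 0.03 each, without passing the test (adjusted p = 0.143 and 0.159). WT arrays ran from 11.01 to 11.26 and Hdac4KO arrays from 11.14 to 11.33 at the brightest. Dcc, the attractive netrin receptor of commissural axons, gave -0.15 ± 0.06 at its brightest probe set (adjusted p = 0.209) and -0.03 and -0.01 at the others. Unc5b, a repulsive netrin receptor also used by blood vessels, gave -0.14 ± 0.06 (adjusted p = 0.246). The netrins gave 0.01 ± 0.04 (Ntn1), 0.04 ± 0.07 (Ntn3) and 0.04 ± 0.05 (Ntn4) and are given here for their role as the ligands. Of the symbols caught by name only, Unc5cl gave -0.20 ± 0.07 (adjusted p = 0.102), Unc50 0.01 ± 0.03 and Plxna4os1, annotated opposite Plxna4, -0.02 ± 0.04.

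Probe sets of a gene often differed in sign. Of the 47 member genes with several probe sets, 24 (51.1%) had both positive and negative differences, against 5243 of 9010 genes (58.2%) over the whole array. Members on the chromosome that carries Hdac4 were Epha4, Nrp2, Unc50, Sema4c and Plxna2, at 123, 235, 381, 392 and 663 annotated protein-coding genes from it. None was called by limma. Their differences at the brightest probe set were -0.0036, 0.0021, 0.01, -0.0034 and 0.05. Dimmer probe sets of Epha4 (1439757_s_at, -0.42, adjusted p = 0.0563) and Nrp2 (1447343_at, 0.28, adjusted p = 0.0504) came close to the threshold. They passed under 7 and 9 of their 32 alternatives.

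No guidance gene was called by limma for labelled sex. With the 2 sexes fitted as separate groups, 0 of 160 member probe sets had a genotype difference that depended on sex and 0 differed between females and males, as did 0% and 0% of all probe sets tested. At an unadjusted p under 0.05 the counts were 11 and 4, or 6.88% and 2.5% of the members, against 5.35% and 3.45% of all probe sets tested. The sex labels limit this comparison: without the 3 arrays whose sex-linked genes went against the label, 33 probe sets of the whole array differed between the sexes and again 0 members did, and the interaction was called for 0 probe sets.

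Genes that act downstream of the receptors, and other guidance cues and adhesion partners, were followed in a list of 102 measured genes with 297 probe sets. Of these, 7 were higher and 6 lower (background 1.05% and 1.01%), and 41 and 32 were so at an unadjusted p under 0.05, or 13.8% and 10.8% against 9.93% and 8.1% of all probe sets tested. Semaphorin effectors (24 genes, 56 probe sets) had 4 higher and 1 lower, Eph and ephrin effectors (20 genes, 69 probe sets) 1 and 1, Slit and Robo effectors (19 genes, 56 probe sets) 1 and 0, netrin effectors (12 genes, 38 probe sets) none (0 and 0 by limma), and other cues and adhesion partners (27 genes, 78 probe sets) 1 and 4.

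The 4 calls at the brightest probe set of a gene were all in the higher direction. Over all 18193 genes, brightest probe sets had 263 higher and 94 lower calls. Ngef (ephexin, the exchange factor that Epha4 uses to activate RhoA) rose by 0.26 ± 0.05, with WT arrays from 9.35 to 9.63 and Hdac4KO arrays from 9.58 to 9.98 (adjusted p = 0.0203). Ngef lies 49 annotated protein-coding genes from Hdac4, and the study picked it for qPCR, by which it reported a modest rise. Cdk5r1, the p35 activator of Cdk5, rose by 0.13 ± 0.03, with WT arrays from 11.53 to 11.69 and every Hdac4KO array above them from 11.70 to 11.88 (adjusted p = 0.0245), and the third probe set in brightness rose by 0.15 ± 0.04 (0.0410). Arhgef12, a RhoA exchange factor bound by plexins of the B class, rose by 0.14 ± 0.03 (adjusted p = 0.0225), and Farp1, a relative of the Plxna1 effector Farp2, by 0.15 ± 0.04 (0.0362). In both, 9 of 10 Hdac4KO arrays lay above all WT arrays.

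Calls at dimmer probe sets went both ways. Cxcl12, a chemokine that attracts migrating neurons, rose by 0.18 ± 0.04 (adjusted p = 0.0320) and Enah, an actin regulator of the growth cone, by 0.17 ± 0.04 (0.0370), each at 1 probe set. All 6 lower calls were at probe sets that were not the brightest of their gene. Over all 34945 probe sets with 1 symbol, 94 of 398 lower and 263 of 407 higher calls were at the brightest. Dpysl3, a CRMP family protein, fell by 0.39 ± 0.07 at its dimmest probe set, where every Hdac4KO array (10.09 to 10.62) lay below every WT array (10.68 to 10.996, adjusted p = 0.0103), and differed by 0.02 at its brightest. Fzd3, a receptor for Wnt-guided axons, fell by 0.59 ± 0.14 (adjusted p = 0.0368), Flrt2, a ligand of Unc5 receptors, by 0.51 ± 0.10 (0.0183), and Chl1, an adhesion partner of Nrp1, by 0.31 ± 0.07 (0.0321), each at 1 probe set. Differences at the brightest probe sets of these were 0.08, 0.04 and -0.03. The other lower calls were Chn2, of the chimaerin family that acts under Eph receptors, with 0.28 ± 0.07 (adjusted p = 0.0438), and Gas1, a co-receptor for Shh, with 0.14 ± 0.03 (0.0381), as sizes of the fall. With the 3′ minus 5′ covariate none of the 297 probe sets was called (0 higher and 0 lower by limma), and without the 2 arrays of intermediate Hdac4 signal 1 was higher and 3 lower.

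**Figure D4:**
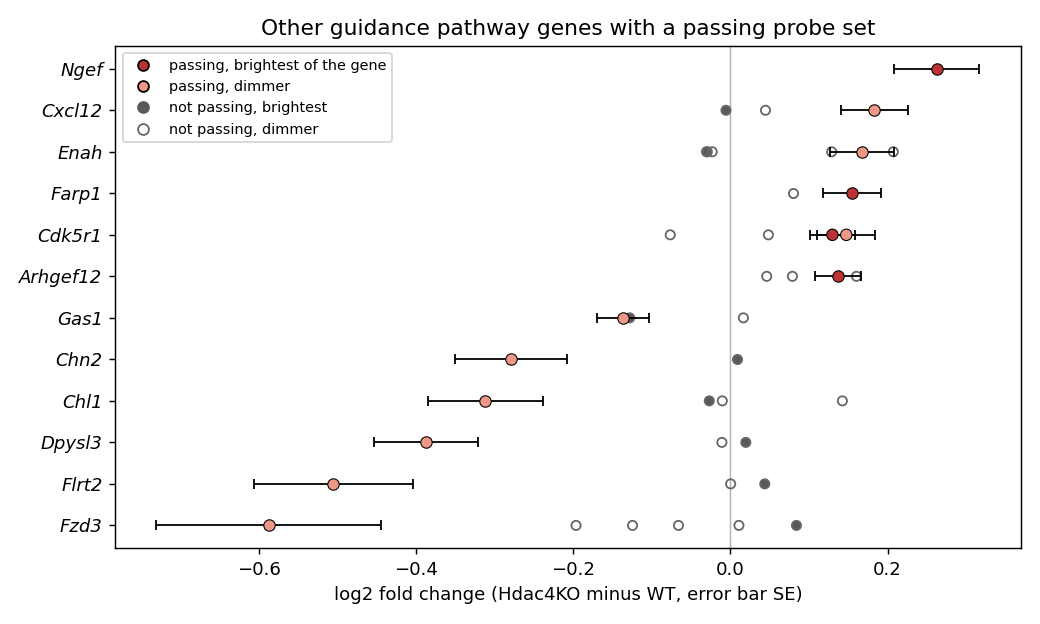
Differences (Hdac4KO minus WT, log2) of all probe sets of the 12 genes with a call among the downstream genes, other cues and adhesion partners, 1 row per gene, with SE bars on the called probe sets, grey points for the others and filled grey for a brightest probe set that was not called. The higher calls lie between 0.13 and 0.26 and the lower calls between -0.14 and -0.59.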

How the data were processed

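Whole brains of WT and Hdac4KO mice at postnatal day 3 were hybridized to Affymetrix mouse arrays, 20 in all, grouped by the labels into 10 per genotype. The authors deposited 1 log2 signal per probe set and array, already normalized between arrays; how they were summarised and normalized was not stated. Per the authors' methods, biotinylated cRNA was made with a 3′ amplification kit and arrays past a limit on a quality measure were excluded. The number of arrays limits the precision, and p-values set a difference against the spread within the genotypes among these samples.

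Of 45101 probe sets, 64 controls were left out. GEO's platform annotation gave 1 symbol for 34945, several for 932 and none for 9160 probe sets, and only those with 1 symbol were named. The fit was made over all 45037 probe sets with limma 3.58.1 in R 4.3.3 (lmFit and eBayes, two-sided, Benjamini-Hochberg adjustment, threshold 0.05), without covariates. Sex was tested in a fit of 4 groups. A gene was represented by its brightest probe set, the one with the highest mean over 20 arrays. The permutation test used 100000 resamples. Promoters and gene order came from RefSeq tables of GRCm38.p6 and figures were drawn with matplotlib 3.10.9 in Python 3.11.15. The scripts were tested on simulated data.

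The genes named were those called, the 3 with the smallest p of each family at the brightest probe set, both neuropilins, members on the chromosome of Hdac4 and called genes of the downstream lists. Sema4d, Sema4f, Sema6d, Sema7a and the class 3 semaphorins and netrins were added after their values were seen. The members and lists were chosen with earlier results of these data known. Alternatives were the methods' t-test, Welch's test, trend and robust eBayes, a covariate for sex or for the RNA integrity measure, a replicate block, removal of dim probe sets (those above the median of fewer than 10 arrays), quantile normalization, median centring, array weights, the brightest probe set per gene, and each array left out. Leaving out WT replicate 8 with Hdac4KO replicate 10, and the 3 arrays against their sex label, were added after seeing the data.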

Additional observations from a re-analysis of the deposited data

How the results depend on the processing

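The main counts were 1 member probe set higher and 5 lower, and 7 and 6 among the downstream genes and other cues. The higher member count was 2 with the methods' t-test, with median centring and without WT replicate 8 and Hdac4KO replicate 10, and 3 with trend and robust eBayes, with sex as a covariate, with quantile normalization, without dim probe sets and with array weights. The lower member count was 2 by Welch's test, 8 with array weights, and 1 when only the brightest probe set of each gene was tested. With the RNA integrity measure (3′ to 5′) as a covariate it was 0 higher and 1 lower among members and 0 and 0 among downstream genes. The downstream counts were 3 lower by Welch's test, 11 lower without dim probe sets, 1 lower over the brightest probe sets, 1 higher and 3 lower without WT replicate 8 and Hdac4KO replicate 10, and 1 higher without the 3 arrays against their sex label. With 1 array left out in turn, the members had 1 to 3 higher and 3 to 7 lower calls and the downstream genes 2 to 12 and 2 to 10. The lowest higher count of the downstream genes was without WT replicate 2 and the highest without Hdac4KO replicate 2, and their lowest lower count was without WT replicate 2, 5 or 7 or Hdac4KO replicate 5 or 9 and the highest without WT replicate 9. The lower member count was 3 without WT replicate 2, 3, 4, 5 or 6 or Hdac4KO replicate 5, 6, 8 or 9. No member was called for sex or its interaction with genotype under any alternative run. The cause of these shifts was not tested, except that fewer probe sets were tested without dim probe sets and over the brightest ones.

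The replicate number did not pair the arrays, since 1 of 10 same-numbered pairs deviated together (correlation over 0.1, range -0.15 to 0.16) and 1 of 10 WT arrays correlated best with its own number. With the replicate number as a block, members had 1 higher and 6 lower calls and the downstream genes 3 higher and 12 lower. The block ended the call of Sema6a 1421414_a_at (adjusted p = 0.120), and Epha4 1439757_s_at and 1421929_at passed with it (0.00646 and 0.0443); it changed no other call of a named member probe set.

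Of 1558 values of the 48 named member probe sets under alternatives, 52 changed sign. All were of 10 probe sets that were not called, and none was larger than 0.035 after the change. Nrp2 1435349_at turned to -0.0071 with the 3′ to 5′ covariate and -0.0085 with quantile normalization, and ran from -0.014 to 0.017 with 1 array left out. Plxnc1 1443433_at turned to 0.011 with the covariate, 0.0017 with array weights and 0.0031 without WT replicate 8 and Hdac4KO replicate 10 (-0.046 to 0.015 with 1 array left out). Sema4c turned to 0.029 with the covariate and 0.020 without the 3 arrays against their sex label (-0.016 to 0.010). Unc50 turned to -0.00088 with quantile normalization, and Nrp1 1457198_at to 0.00016 without WT replicate 8 and Hdac4KO replicate 10 (-0.058 to 0.035). With 1 array left out, Epha4 1429021_at ran from -0.024 to 0.015, Nrp2 1456778_at from -0.058 to 0.0030, Sema6a 1436458_at from -0.028 to 0.0093, Plxna4os1 from -0.031 to 0.0033 and Robo2 from -0.0052 to 0.068. Another 37 values gained and 37 lost their call. Signal was low at the dim Plxnc1 probe sets, and its part in their spread was not tested. Their SD within genotypes was 0.38 at 1450906_at, the highest of any member, and 0.35 at 1423214_at. It was 0.13 and 0.16 at 1443434_s_at and 1443433_at, which were dimmer still.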
